A study of Mus musculus with 23 samples.

Results

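A set of 65 genes was high in the testis of CAST/EiJ mice and low in the testis of C57BL/6J and NZO/HlLtJ mice. These genes were selected on the levels themselves. For each of the 28861 genes in the deposited count table, the count was divided by the library's total and multiplied by 1e+06 to give CPM, counts per 1e+06 counts, and averaged over the libraries of a strain, both diets together. A gene was kept when its CAST/EiJ mean was at least 2 CPM and at least 8 times the higher of the C57BL/6J and NZO/HlLtJ means. These thresholds were met by 119 genes, and 54 of them were left aside by symbol (40 named Gm with a number, 5 ending in Rik and 9 others such as Cyp2c70, Olfr364-ps1 and Vmn2r6). The strain difference of the remaining 65 is therefore a description and carries no test. For scale, the same thresholds and symbols turned round gave 21 genes high only in NZO/HlLtJ and 27 high only in C57BL/6J. They gave 95 genes low only in CAST/EiJ, with both other means at least 2 CPM and at least 8 times the CAST/EiJ mean.

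The data were polyA RNA sequencing of whole testis from wild-type male mice of 3 inbred strains. CAST/EiJ is a wild-derived strain of the castaneus subspecies, C57BL/6J is the common laboratory strain on which the mouse reference genome is built, and NZO/HlLtJ is the New Zealand Obese strain. From 6 to 16 weeks of age the mice ate a diet with 44% fat, rich in sugar, or a control diet with 10% fat, and both diets had added fiber. There were 4 CAST/EiJ libraries on 44% fat and 3 on 10% fat, and 4 libraries for each diet in C57BL/6J and in NZO/HlLtJ, which makes 23. No other treatment was given per the labels, which name no separate animals but give each library its own ID, so p-values measure the spread between these samples.

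Library totals lay between 21.9 and 78.7 M counts (M, 1e+06), and 6 markers of spermatids summed to between 7001 and 9430.3 CPM in every library. Markers of some other cells differed between strains. The 5 myoid markers summed to between 154 and 179 CPM in CAST/EiJ, compared with 287 to 326 CPM in C57BL/6J and 298 to 321 CPM in NZO/HlLtJ. The 6 Leydig markers had median sums of 548 CPM in CAST/EiJ, compared with 685 CPM in C57BL/6J and 1230.4 CPM in NZO/HlLtJ. For 6 Sertoli markers the medians were 132 CPM in CAST/EiJ, 130 CPM in C57BL/6J and 166 CPM in NZO/HlLtJ. For 5 spermatogonia markers they were 112 CPM in CAST/EiJ, 86.5 CPM in C57BL/6J and 158 CPM in NZO/HlLtJ. Their part in the levels below was not tested. The CAST/EiJ 44% fat replicate 2 stood apart with 97.7 CPM over 6 epididymis markers (of 13 chosen), where the medians were 0.522 CPM in CAST/EiJ, 4.91 CPM in C57BL/6J and 0.418 CPM in NZO/HlLtJ. In C57BL/6J the 10% fat replicate 2 was highest at 18.1 CPM. No gene of the set was more than 1.5 times higher in the CAST/EiJ 44% fat replicate 2 than in the mean of the other CAST/EiJ libraries. Without it 65 genes met the rule, of which 64 were the same. In whole testis, more cells of a type and more RNA per cell cannot be told apart.

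Testis RNA is dominated by meiotic cells and spermatids, which transcribe an unusually broad share of the genome, including genes best known from brain, skin or gut. The mouse genome also carries many retrocopies, which are intronless copies of a messenger RNA pasted back into it. A gene with a retrocopy or a tandem duplicate shares most of its sequence with it, so a short read may fit both, and the wild-derived CAST/EiJ genome differs from the reference at many bases. The 65 genes fell into 17 that have a close copy among the counted genes and 48 that have none, so the sequences come first.

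A close copy was a GENCODE transcript of another gene, in the same orientation, that aligned to a transcript of the gene over at least 100 bases at 90% identity or more and covered at least 50% of the shorter transcript. The following stretches of 100 coding bases, taken from GENCODE M21 transcripts on GRCm38, show how little separates a retrocopy of the set from its parent gene. Capitals mark the bases at which the members of a pair differ, and each stretch is the one with most differences in the aligned coding part. Rps13-ps1 lies on chromosome 8 and its parent Rps13, a protein of the small ribosomal subunit, on chromosome 7; over bases 330 to 429 of the coding sequence they differ at 2 positions.
Rps13-ps1: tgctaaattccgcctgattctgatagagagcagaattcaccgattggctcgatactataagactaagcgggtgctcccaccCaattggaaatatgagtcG
Rps13: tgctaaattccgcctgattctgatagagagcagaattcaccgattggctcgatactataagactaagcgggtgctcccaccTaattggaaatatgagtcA
Rps15-ps2 lies on chromosome 6 and Rps15, another small-subunit protein, on chromosome 10, with 6 differences over coding bases 135 to 234.
Rps15-ps2: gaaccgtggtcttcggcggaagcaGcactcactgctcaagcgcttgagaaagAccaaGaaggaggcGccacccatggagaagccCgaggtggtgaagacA
Rps15: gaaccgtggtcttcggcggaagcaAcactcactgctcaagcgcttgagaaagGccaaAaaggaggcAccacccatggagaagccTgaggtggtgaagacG
Fam220-ps lies on the X chromosome and Fam220a on chromosome 5, with 8 differences over coding bases 207 to 306.
Fam220-ps: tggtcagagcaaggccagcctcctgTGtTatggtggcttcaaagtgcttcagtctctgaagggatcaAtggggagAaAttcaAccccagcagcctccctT
Fam220a: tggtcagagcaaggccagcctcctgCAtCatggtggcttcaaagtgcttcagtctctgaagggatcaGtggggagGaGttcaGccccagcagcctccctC
These are the wider gaps: over the whole alignment Rps13-ps1 matched Rps13 at 520 of 522 bases, Rps12 matched its retrocopy Rps12-ps3 at 494 of 494, and Apoo-ps matched Apoo at 586 of 586.

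The sequence before the start was read as well. RefSeq promoters of GRCm38.p6 matched 43 of the 65 genes, with Rps12, Zfp82, Rpl37rt, Amd2, Sirpb1a and Gsta1 among them as genes that have a close copy. The 3 shown here belong to the protein-coding genes with the largest ratio between strains whose RefSeq start lay within 50 bases of the deposited gene start, and each holds the 250 bases before the start with CG dinucleotides, the sites of DNA methylation, in capitals. Zfp663 encodes a zinc finger protein, and its window is chr2:165368737-165368986 on the minus strand with 9 CG.
Zfp663: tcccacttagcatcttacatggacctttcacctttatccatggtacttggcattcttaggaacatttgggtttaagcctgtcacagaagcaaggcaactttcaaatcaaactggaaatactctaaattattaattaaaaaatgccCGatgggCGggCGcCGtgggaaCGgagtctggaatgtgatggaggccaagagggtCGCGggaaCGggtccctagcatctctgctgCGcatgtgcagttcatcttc
Reg3g encodes an antibacterial lectin of the gut, and its window is chr6:78468875-78469124 on the minus strand with 1 CG.
Reg3g: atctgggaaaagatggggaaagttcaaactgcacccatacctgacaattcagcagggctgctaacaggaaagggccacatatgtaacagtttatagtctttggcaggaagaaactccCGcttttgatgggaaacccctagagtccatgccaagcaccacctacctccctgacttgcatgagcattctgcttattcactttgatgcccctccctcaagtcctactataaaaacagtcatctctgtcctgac
Ceacam15 belongs to a family of cell surface immunoglobulin proteins, and its window is chr7:16675706-16675955 on the minus strand with 0 CG.
Ceacam15: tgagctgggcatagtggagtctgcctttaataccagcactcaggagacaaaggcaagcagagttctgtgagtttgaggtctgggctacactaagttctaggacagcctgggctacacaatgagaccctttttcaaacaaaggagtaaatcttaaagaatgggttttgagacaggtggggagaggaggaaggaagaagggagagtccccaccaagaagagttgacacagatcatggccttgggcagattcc
Over the 43 genes the median was 7 CG in 250 bases, against 11 over 16011 promoters, and 39.5% of the genes had 5 CG or fewer, against 31.6% of all promoters. The TATA box letters TATAAA, read on both strands, were found in 4 of the 43 (9.3%), against 8.76% of all promoters. The cyclic AMP response element TGACGTCA, bound by the CREM factor of spermatids, was found in 0, against 2.2% of all promoters, and the motif of the factor NRF1 in 1 (2.33%), against 1.17%. These windows are reference sequence of C57BL/6J, and the CAST/EiJ sequence was not used here.

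Across the 65 genes the mean level had a median of 7.91 CPM in CAST/EiJ, compared with 0.303 CPM in C57BL/6J and 0.256 CPM in NZO/HlLtJ. The ratio of the CAST/EiJ mean to the higher other mean had a median of 18.9 and ran from 8.11 for Amd2 to 328 for Zfp663. It lay between 8 and 16 for 28 genes, between 16 and 50 for 26 and at 50 or above for 11. In all 65 the lowest CAST/EiJ library was above the highest of the other 16, a pattern found in 8.67% of all genes in the table; the rule chose for it, so nothing is read from the count. Both other strains were below 1 CPM for 48 genes. Per kilobase of exon, the CAST/EiJ levels had percentiles among all genes in the table from 36.9 to 98.3, with a median of 65.3. The mean in NZO/HlLtJ was within 2-fold of that in C57BL/6J for 49 genes. Unc5c, a netrin receptor, was among the other 16, with 4.9 CPM in CAST/EiJ, compared with 0.566 in C57BL/6J and 0.0569 in NZO/HlLtJ.

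**Figure D1:**
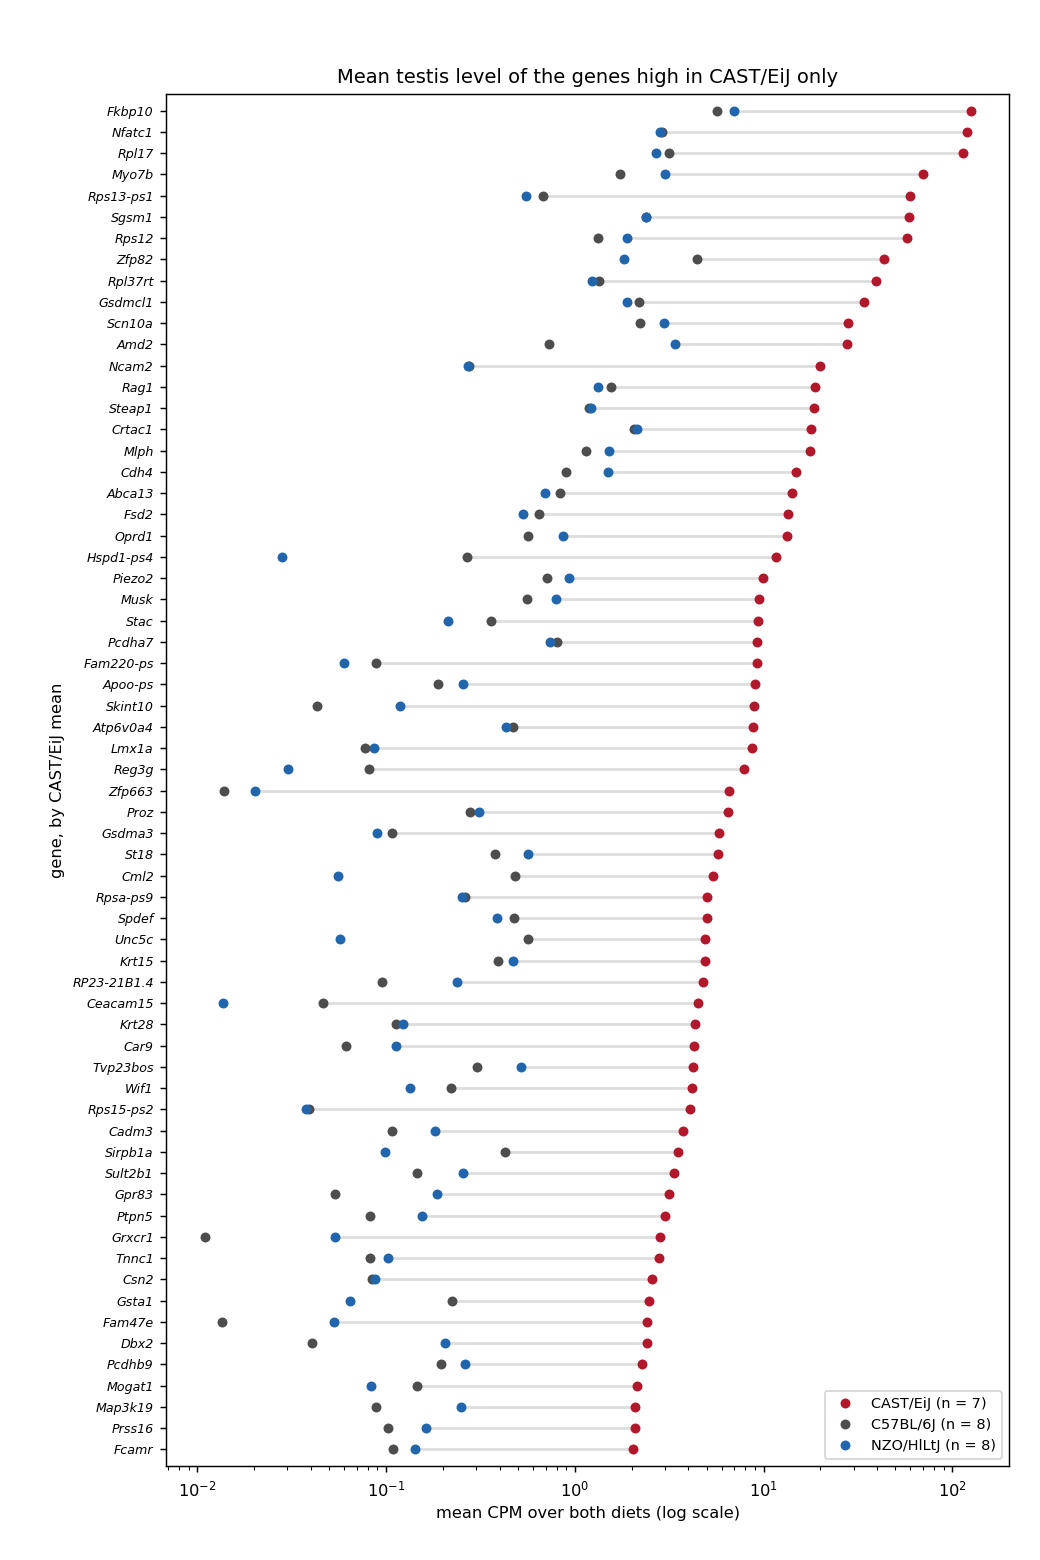
Mean CPM on a log axis for each of 64 genes of the set (rows, ordered by the CAST/EiJ mean) in CAST/EiJ (red, n = 7), C57BL/6J (grey, n = 8) and NZO/HlLtJ (blue, n = 8). The CAST/EiJ points run from 125 CPM for Fkbp10 to 2.02 CPM for Fcamr, and the grey and blue points lie to the left of them in every row because the rule required it.

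The thresholds cut through a continuum. Just inside the fold limit lay Amd2 at 8.11, Tvp23bos at 8.17 and Sirpb1a at 8.29, and just outside it Atp5g2 at 7.96, Chrm1 at 7.75 and Fam124a at 7.53. Just inside the level limit lay Fcamr at 2.02 CPM, Prss16 at 2.08 CPM and Map3k19 at 2.09 CPM, and just outside it Slc6a19os at 1.95 CPM, Rpsa-ps1 at 1.83 CPM and Omp at 1.72 CPM. The genes left aside by symbol included higher ones than any in the set. The first 5 by CAST/EiJ mean were Gm13341 with 646 CPM, Gm5601 with 468, Gm1821 with 226, Gm10709 with 85 and Gm2541 with 41.1, each of them a pseudogene in the annotation. Of the 54 left aside, 27 were of a pseudogene type. The table lists no gene with a value above 0 in fewer than 12 libraries, so a gene read in CAST/EiJ alone can be missing from it.

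Ribosomal protein genes and retrocopies made up the first group. Of the set, 11 genes (among them Rpl17, Rps12, Rps13-ps1, Rpl37rt, Rps15-ps2, Rpsa-ps9, Hspd1-ps4, Amd2, Fam220-ps and Apoo-ps) were a retrocopy, a parent gene or a relative of one and had a close copy at 92.6% identity or more, and Cml2, Gsta1 and Sirpb1a had a close relative on the same chromosome. For these 14 genes the sum of the gene and its copies in CAST/EiJ was less than 2 times the sum in the higher of the other strains. Since a read may fit both a gene and its copy, the copies are not taken as independent of the rule that chose the genes.

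Rpl17, a protein of the large ribosomal subunit (chr18:75000477-75003381, plus strand), gave the plainest exchange. Its lowest, median and highest levels were 104, 115 and 124 CPM in CAST/EiJ, compared with 1.2, 3.21 and 4.99 CPM in C57BL/6J and 1.91, 2.8 and 3.36 CPM in NZO/HlLtJ. The X-linked retrocopy Rpl17-ps8, which matches it at 618 of 620 bases, averaged 0.612 ± 0.397 CPM in CAST/EiJ (SD, n = 7), against 113 ± 8.26 CPM in C57BL/6J and 123 ± 9.88 CPM in NZO/HlLtJ (SD, n = 8 each). The groups did not overlap for either gene. Summed, the pair had 115 ± 6.84 CPM in CAST/EiJ, compared with 116 ± 9.32 CPM in C57BL/6J and 126 ± 9.62 CPM in NZO/HlLtJ. Rpl17 held 99.5% of the pair in CAST/EiJ, compared with 2.65% in C57BL/6J and 2.15% in NZO/HlLtJ. Another copy of Rpl17, Gm6133, went the way of Rpl17, with 5.98 CPM in CAST/EiJ, against 0.295 in C57BL/6J and 0.332 CPM in NZO/HlLtJ.

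Rps12, a protein of the small ribosomal subunit (chr10:23785211-23787195, minus strand), followed the same course. Its lowest, median and highest levels were 53.6, 58.3 and 62.8 CPM in CAST/EiJ, compared with 0.572, 1.29 and 2.56 CPM in C57BL/6J and 0.907, 1.59 and 4.53 CPM in NZO/HlLtJ. Its retrocopy Rps12-ps3 on chromosome 19 averaged 2.07 CPM in CAST/EiJ, compared with 54.4 CPM in C57BL/6J and 64.8 CPM in NZO/HlLtJ, and the pair summed to 59.7 ± 3.17 CPM in CAST/EiJ, against 55.8 ± 4.77 in C57BL/6J and 66.7 ± 5.5 CPM in NZO/HlLtJ (SD). In C57BL/6J and NZO/HlLtJ the parent ribosomal genes Rpl17 and Rps12 were thus the partners with few counts, and the retrocopies held most of each pair.

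For Rps13-ps1 (chr8:87047689-87048226, plus strand) it was the retrocopy that was high in CAST/EiJ. The lowest, median and highest levels were 54.6, 58.2 and 65.1 CPM in CAST/EiJ, compared with 0.00772, 0.286 and 2.61 CPM in C57BL/6J and 0.0283, 0.225 and 2.21 CPM in NZO/HlLtJ. Parent Rps13 averaged 22.6 CPM in CAST/EiJ, compared with 117 CPM in C57BL/6J and 117 CPM in NZO/HlLtJ, so the retrocopy held 72.5% of the pair, against 0.57% in C57BL/6J and 0.454% in NZO/HlLtJ. The pair summed to 82.5 ± 4.13 CPM in CAST/EiJ, below both 117 ± 10 CPM in C57BL/6J and 117 ± 9.14 CPM in NZO/HlLtJ (SD). Per kilobase of exon Rps13-ps1 was the highest of the set, with 111 CPM per kilobase in CAST/EiJ.

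Other pairs were split rather than exchanged in CAST/EiJ. Rpl37rt (chr5:115102923-115110268), a retrotransposed relative of the large-subunit gene Rpl37, had 36.6, 39.6 and 43.1 CPM in CAST/EiJ, compared with 0.455, 1.38 and 2.49 CPM in C57BL/6J and 0.0454, 0.877 and 3.67 CPM in NZO/HlLtJ as lowest, median and highest levels, and Rpl37 averaged 46.1 CPM in CAST/EiJ, against 82.6 in C57BL/6J and 90.9 CPM in NZO/HlLtJ. Amd2 (chr10:35708691-35711891), a copy of the S-adenosylmethionine decarboxylase gene Amd1 of polyamine synthesis, had 24.2, 28.1 and 30.5 CPM in CAST/EiJ, compared with 0.351, 0.632 and 1.25 CPM in C57BL/6J and 1.91, 3.44 and 4.45 CPM in NZO/HlLtJ, and Amd1 averaged 41.3 CPM in CAST/EiJ, against 81.2 in C57BL/6J and 105 CPM in NZO/HlLtJ. In both pairs, the share held by the gene of the set (Rpl37rt or Amd2) lay between 36.4% and 51.6% in every CAST/EiJ library. The summed pair of Rpl37rt (85.4 ± 5.53 CPM in CAST/EiJ, compared with 84 ± 8.76 CPM in C57BL/6J) differed from C57BL/6J by less than the SD of the libraries. In NZO/HlLtJ the same pair summed to 92.2 ± 9.38 CPM (SD). The sum of Amd2 and Amd1 was lower, with 69 ± 2.89 CPM in CAST/EiJ, compared with 81.9 ± 1.94 CPM in C57BL/6J and 108 ± 3.73 CPM in NZO/HlLtJ (SD). Another copy of Amd2, Amd-ps3, averaged 15.5 CPM in CAST/EiJ, against 1.34 in C57BL/6J and 3.06 CPM in NZO/HlLtJ.

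Rps15-ps2 and Fam220-ps had ratios above 100 but made up a small part of their pairs. Rps15-ps2 (chr6:58017506-58017943) had 3.53, 4.1 and 4.7 CPM in CAST/EiJ, compared with 0, 0.0268 and 0.117 CPM in C57BL/6J and 0, 0.0268 and 0.161 CPM in NZO/HlLtJ as lowest, median and highest levels. Rps15 averaged 39.2 CPM in CAST/EiJ, compared with 107 CPM in C57BL/6J and 130 CPM in NZO/HlLtJ, and the pair with 43.3 ± 2.2 CPM in CAST/EiJ stayed below the 107 ± 13.8 CPM of C57BL/6J and the 130 ± 10.9 CPM of NZO/HlLtJ (SD). The gain in the retrocopy was thus far smaller than the shortfall in the parent. Fam220-ps (chrX:75143688-75144470) had 8.72, 9.07 and 9.9 CPM in CAST/EiJ, compared with under 0.001, 0.0865 and 0.176 CPM in C57BL/6J and under 0.001, 0.026 and 0.297 CPM in NZO/HlLtJ, beside 145 CPM of Fam220a in CAST/EiJ, against 166 in C57BL/6J and 164 CPM in NZO/HlLtJ. Its other copy, Gm16410, went the way of Fam220-ps, with 7.13 CPM in CAST/EiJ, against 0.00696 in C57BL/6J and 0.0256 CPM in NZO/HlLtJ.

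Apoo-ps, a retrocopy of the mitochondrial MICOS gene Apoo, had 6.5, 8.54 and 11.8 CPM in CAST/EiJ, compared with under 0.001, 0.0599 and 0.794 CPM in C57BL/6J and 0.0222, 0.105 and 0.836 CPM in NZO/HlLtJ, and its share of the pair ranged from 55% to 85.4% among CAST/EiJ libraries, which made it one of the most variable genes of the set (coefficient of variation 18.7%). Hspd1-ps4, a retrocopy of the mitochondrial chaperonin gene Hspd1, averaged 11.7 CPM in CAST/EiJ, compared with 0.267 in C57BL/6J and 0.0279 in NZO/HlLtJ, and Rpsa-ps9, a retrocopy of the laminin receptor and ribosomal gene Rpsa, 5.03 CPM in CAST/EiJ, compared with 0.261 in C57BL/6J and 0.253 in NZO/HlLtJ. Hspd1 and Rpsa were far more abundant, with 50.9 and 189 CPM in CAST/EiJ. Sirpb1a, a signal-regulatory receptor of myeloid cells, had 2.11, 3.92 and 4.46 CPM in CAST/EiJ, compared with 0.098, 0.34 and 0.977 CPM in C57BL/6J and under 0.001, 0.0817 and 0.237 CPM in NZO/HlLtJ, while Sirpb1c averaged 0.978 CPM in CAST/EiJ, against 6.54 in C57BL/6J and 4.78 CPM in NZO/HlLtJ. Gsta1, a glutathione transferase, had 1.56, 2.32 and 3.62 CPM in CAST/EiJ, compared with 0.03, 0.166 and 0.704 CPM in C57BL/6J and under 0.001, 0.046 and 0.165 CPM in NZO/HlLtJ, and its relative Gsta2 10.1 CPM in CAST/EiJ, against 11.2 in C57BL/6J and 12.6 CPM in NZO/HlLtJ. Cml2, a camello-like acetyltransferase gene, averaged 5.38 CPM in CAST/EiJ, compared with 0.484 in C57BL/6J and 0.0553 in NZO/HlLtJ, and 1700019G17Rik 19.9 CPM in CAST/EiJ, against 33.9 in C57BL/6J and 15.7 CPM in NZO/HlLtJ.

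**Figure D2:**
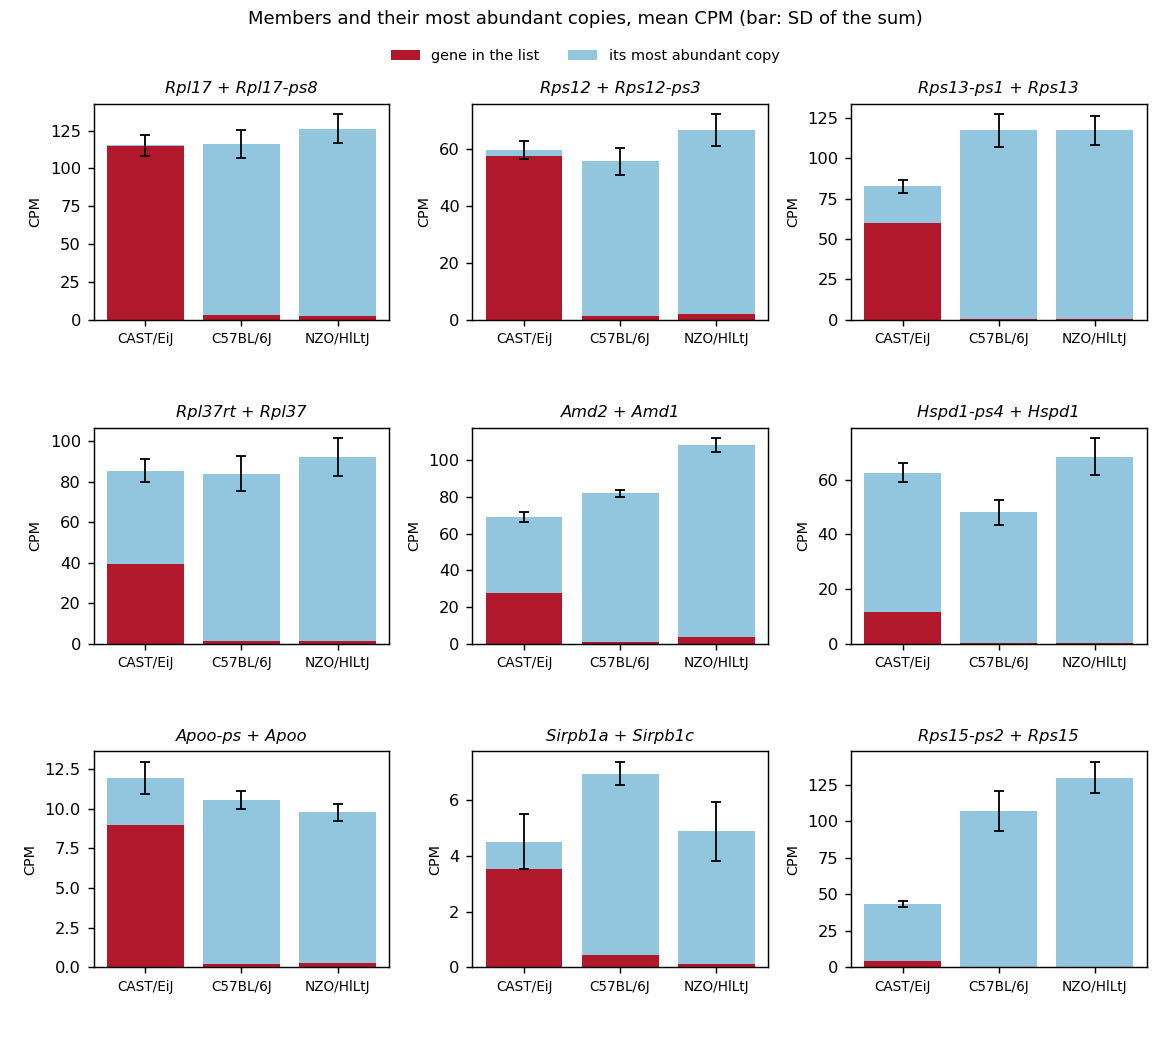
Mean CPM of 9 genes of the set (red) stacked on their most abundant copy (blue) in CAST/EiJ (n = 7), C57BL/6J and NZO/HlLtJ (n = 8 each), with error bars giving the SD of the sum. The 9 were picked by hand from the 17 genes with copies. All but Hspd1-ps4 have a most abundant copy called lower in CAST/EiJ than in both other strains. Over the 17 this held for 9, with 3 higher and 5 neither. For Rpl17, Rps12 and Rpl37rt the column heights in CAST/EiJ and C57BL/6J are alike while the colours change places or share the column; for Rps15-ps2 the column reaches 43.3 CPM in CAST/EiJ, against 107 in C57BL/6J and 130 CPM in NZO/HlLtJ.

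Over the 17 genes with copies, the most abundant copy was lower in CAST/EiJ than in both other strains for 9, higher than in both for 3 and neither for 5 (edgeR's quasi-likelihood test, adjusted p under 0.05 in both comparisons, where 24.9% of all tested genes were lower and 22.3% higher). Over all 36 copies tested, 13 were lower (36.1%), 10 higher (27.8%) and 13 neither. The most abundant copy was the one with the highest mean in any strain, so it could be scarce in CAST/EiJ. Because copies may share reads with genes chosen for their strain difference, nothing is read from these counts. Among the most abundant copies, Hspd1 and Fam220a were neither and Rpsa was higher. The sources used here do not state how reads that fit several genes were divided, and the part of that step in these levels was not tested.

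In 3 of the 17 the sum stayed 2-fold or more above the other strains. Gsdmcl1 (chr15:63847309-63855155), of the gasdermin family whose members can open pores in membranes, had 32.1, 33.8 and 37.7 CPM in CAST/EiJ, compared with 1.64, 2.2 and 2.59 CPM in C57BL/6J and 1.08, 1.97 and 2.45 CPM in NZO/HlLtJ. In the same gene cluster, Gsdmcl-ps averaged 129 ± 2.84 CPM in CAST/EiJ, against 24.2 ± 1.6 in C57BL/6J and 21.1 ± 0.641 CPM in NZO/HlLtJ, and Gsdmcl2 averaged 29.6 CPM in CAST/EiJ, against 11.9 in C57BL/6J and 11.6 CPM in NZO/HlLtJ, while 1700065I16Rik averaged 0.00182 CPM in CAST/EiJ, against 12.2 in C57BL/6J and 9.86 CPM in NZO/HlLtJ. The sum was 3.82 times that of the higher other strain. Zfp82 (chr7:30054489-30072900), a zinc finger gene, had 39.8, 44 and 47.5 CPM in CAST/EiJ, compared with 3.97, 4.25 and 5.19 CPM in C57BL/6J and 0.609, 2.14 and 2.28 CPM in NZO/HlLtJ; its copy Gm26920 is an overlapping gene model on the same strand with 1.17 CPM in CAST/EiJ, so the sum was still 9.73 times higher. Pcdha7, a clustered protocadherin that neurons use to tell their own branches from others, averaged 9.28 CPM in CAST/EiJ, compared with 0.806 in C57BL/6J and 0.743 in NZO/HlLtJ, and its matches are other Pcdha genes that share exons with it; the sum was 2.52 times higher.

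The other 48 genes had no close copy among the counted genes, and none of them was annotated as a pseudogene. They had a median ratio of 18.4, against 20.2 for the 17 with copies. Transcription factors included the second most abundant gene of the set. Nfatc1 (chr18:80606205-80713071, minus strand), a calcineurin-dependent factor known from lymphocytes, bone and heart valves, had 105, 120.2 and 126 CPM in CAST/EiJ, compared with 2.38, 2.94 and 3.28 CPM in C57BL/6J and 2.14, 2.95 and 3.07 CPM in NZO/HlLtJ. These levels rest on 35259 counts in CAST/EiJ, compared with 784 in C57BL/6J and 835 in NZO/HlLtJ. Of its relatives, Nfatc2 averaged 10.1 CPM in CAST/EiJ, against 3.73 in C57BL/6J and 4.71 CPM in NZO/HlLtJ, and Nfatc3 45.1 CPM in CAST/EiJ, against 45.4 in C57BL/6J and 60.4 CPM in NZO/HlLtJ.

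Zfp663 (chr2:165351297-165368729, minus strand), a zinc finger gene with few reads outside CAST/EiJ, had 4.9, 6.73 and 7.76 CPM in CAST/EiJ, compared with 0, 0 and 0.0533 CPM in C57BL/6J and 0, 0.0115 and 0.0833 CPM in NZO/HlLtJ. It rests on 1946 counts in CAST/EiJ, compared with 4 in C57BL/6J and 6 in NZO/HlLtJ, so its ratio of 328 has a denominator near the detection limit. Lmx1a (chr1:167689237-167848741, plus strand), a homeobox factor of dopamine neurons and the roof plate, had 8.23, 8.53 and 9.6 CPM in CAST/EiJ, compared with 0, 0.0547 and 0.215 CPM in C57BL/6J and 0, 0.0559 and 0.323 CPM in NZO/HlLtJ. The related Lmx1b averaged 0.191 CPM in CAST/EiJ, against 0.312 in C57BL/6J and 0.235 CPM in NZO/HlLtJ. Lower in the same class were St18, a zinc finger factor, with 5.7 CPM in CAST/EiJ, compared with 0.378 in C57BL/6J and 0.562 in NZO/HlLtJ, Spdef, an Ets factor of secretory epithelia, with 5.01 CPM in CAST/EiJ, compared with 0.477 in C57BL/6J and 0.388 in NZO/HlLtJ, and Dbx2, a homeobox factor of the spinal cord, with 2.41 CPM in CAST/EiJ, compared with 0.0404 in C57BL/6J and 0.206 in NZO/HlLtJ.

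Channels, receptors and signalling proteins of excitable cells formed a group of 7, with CAST/EiJ means from 2.99 to 28.1 CPM and ratios from 9.51 to 26. Scn10a (chr9:119608456-119719032, minus strand), the sodium channel Nav1.8 of pain-sensing neurons, had 26.6, 28.1 and 29.3 CPM in CAST/EiJ, compared with 1.51, 2.05 and 2.88 CPM in C57BL/6J and 2.55, 2.93 and 3.34 CPM in NZO/HlLtJ, and was the least variable of the set with a coefficient of variation of 3.48%. Piezo2, the mechanically gated channel of touch receptors, averaged 9.93 CPM in CAST/EiJ, compared with 0.715 in C57BL/6J and 0.931 in NZO/HlLtJ, and its relative Piezo1 18 CPM in CAST/EiJ, against 6.79 in C57BL/6J and 9.81 CPM in NZO/HlLtJ. Musk, the receptor kinase of the nerve-muscle junction, averaged 9.42 CPM in CAST/EiJ, compared with 0.557 in C57BL/6J and 0.797 in NZO/HlLtJ. Stac, an adaptor of calcium channels, averaged 9.3 CPM in CAST/EiJ, compared with 0.358 in C57BL/6J and 0.212 in NZO/HlLtJ. The opioid receptor gene Oprd1 averaged 13.3 CPM in CAST/EiJ, compared with 0.566 in C57BL/6J and 0.863 in NZO/HlLtJ, and the orphan receptor gene Gpr83 3.16 CPM in CAST/EiJ, compared with 0.0535 in C57BL/6J and 0.186 in NZO/HlLtJ. Ptpn5 encodes STEP, a neuronal tyrosine phosphatase, and averaged 2.99 CPM in CAST/EiJ, compared with 0.0822 in C57BL/6J and 0.155 in NZO/HlLtJ.

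Adhesion and guidance molecules of the nervous system formed another group of 6. Ncam2, a neural cell adhesion molecule, had 18.9, 19.9 and 21.4 CPM in CAST/EiJ, compared with 0.0912, 0.236 and 0.453 CPM in C57BL/6J and 0.0872, 0.27 and 0.492 CPM in NZO/HlLtJ, while its relative Ncam1 averaged 15.2 CPM in CAST/EiJ, against 17 in C57BL/6J and 12.4 CPM in NZO/HlLtJ. Cdh4, or R-cadherin, averaged 14.9 CPM in CAST/EiJ, compared with 0.902 in C57BL/6J and 1.49 in NZO/HlLtJ. Cadm3 (chr1:173333258-173367695), a synaptic adhesion molecule, varied most of all 65 within CAST/EiJ, with a coefficient of variation of 40.9%: it read 4.12, 3.58, 3.87 and 1.61 CPM in the 44% fat libraries and 1.97, 5.18 and 5.74 CPM in the 10% fat libraries. Its lowest CAST/EiJ library was above the highest others, at 0.213 CPM in C57BL/6J and 0.439 CPM in NZO/HlLtJ, which the rule chose for. The relatives Cadm1, Cadm2 and Cadm4 had levels of 108, 10.3 and 1.62 CPM in CAST/EiJ, beside 115, 10.6 and 1.42 CPM in C57BL/6J. Pcdhb9 (chr18:37400855-37403909), a clustered protocadherin, had 1.68, 2.16 and 3.1 CPM in CAST/EiJ, compared with 0.12, 0.171 and 0.293 CPM in C57BL/6J and 0.205, 0.231 and 0.415 CPM in NZO/HlLtJ and lies 213 kilobases from Pcdha7.

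Skin and gut barrier genes included some of the largest ratios. Reg3g (chr6:78466269-78468872) had 7.4, 7.64 and 8.46 CPM in CAST/EiJ, compared with 0, 0.0973 and 0.144 CPM in C57BL/6J and 0, 0.026 and 0.102 CPM in NZO/HlLtJ; the neighbouring Reg2 averaged 0.0426 CPM in CAST/EiJ, against 0.807 in C57BL/6J and 0.809 CPM in NZO/HlLtJ. Ceacam15 (chr7:16671331-16675705) had 3.64, 4.4 and 5.61 CPM in CAST/EiJ, compared with 0, 0.0293 and 0.115 CPM in C57BL/6J and 0, 0 and 0.0489 CPM in NZO/HlLtJ. Its relatives did not share one direction: Ceacam10 and Ceacam3 averaged 1.61 and 2.76 CPM in CAST/EiJ, compared with 0.24 and 1.07 CPM in C57BL/6J, Ceacam20 and Ceacam1 averaged 1.34 and 1.11 CPM in CAST/EiJ, compared with 2.41 and 1.5 CPM in C57BL/6J, and Ceacam2 averaged 40.9 CPM in CAST/EiJ, compared with 40.4 CPM in C57BL/6J. On chromosome 11, the hair keratin gene Krt28 averaged 4.34 CPM in CAST/EiJ, compared with 0.112 in C57BL/6J and 0.123 in NZO/HlLtJ, the basal keratin gene Krt15 had 4.04, 4.91 and 5.58 CPM in CAST/EiJ, compared with 0.18, 0.362 and 0.703 CPM in C57BL/6J and 0.3, 0.491 and 0.659 CPM in NZO/HlLtJ, and the skin gasdermin gene Gsdma3 averaged 5.83 CPM in CAST/EiJ, compared with 0.107 in C57BL/6J and 0.089 in NZO/HlLtJ.

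**Figure D3:**
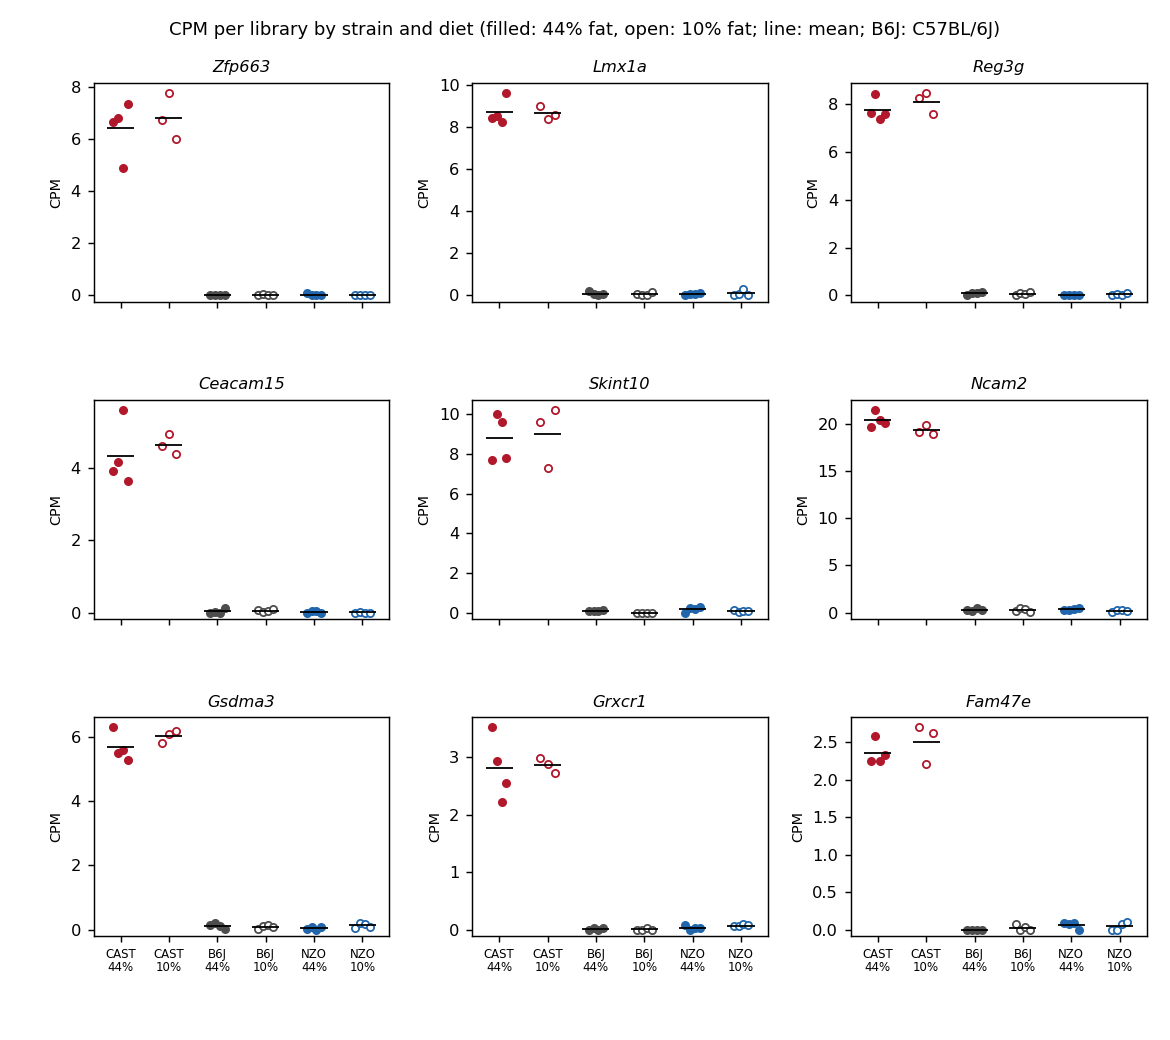
CPM in every library of the 9 genes without a close copy that had the largest ratio, with filled points for 44% fat and open points for 10% fat and a line at each group's mean (CAST/EiJ in red, C57BL/6J, marked B6J, in grey, NZO/HlLtJ in blue). All 7 CAST/EiJ points of each gene stand clear of the other 16, which the rule chose for, and the diets overlap within CAST/EiJ.

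Secreted proteins and their folding machinery contained the most abundant gene. Fkbp10 (chr11:100415697-100424824, plus strand), a prolyl isomerase of the endoplasmic reticulum that helps collagen fold, had 112, 127 and 136 CPM in CAST/EiJ, compared with 4.83, 5.64 and 6.56 CPM in C57BL/6J and 5.72, 7.06 and 7.85 CPM in NZO/HlLtJ. It overlaps Nt5c3b on the opposite strand, and Nt5c3b averaged 60.5 CPM in CAST/EiJ, against 55.1 in C57BL/6J and 55.3 CPM in NZO/HlLtJ. The gene next to it, P3h4, whose product works in collagen modification, averaged 6.16 CPM in CAST/EiJ, against 4.41 in C57BL/6J and 5.92 CPM in NZO/HlLtJ. Crtac1, a cartilage protein, averaged 17.7 CPM in CAST/EiJ, compared with 2.06 in C57BL/6J and 2.12 in NZO/HlLtJ. Others were the Wnt inhibitor Wif1 (4.16 CPM in CAST/EiJ, compared with 0.22 in C57BL/6J and 0.134 in NZO/HlLtJ), the protein Z gene Proz of the clotting system (6.48 CPM in CAST/EiJ, compared with 0.277 in C57BL/6J and 0.311 in NZO/HlLtJ) and the milk casein gene Csn2 (2.55 CPM in CAST/EiJ, compared with 0.0844 in C57BL/6J and 0.0877 in NZO/HlLtJ). The thymic serine protease gene Prss16 averaged 2.08 CPM in CAST/EiJ, compared with 0.102 in C57BL/6J and 0.162 in NZO/HlLtJ.

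Motors, transporters and membrane traffic gave 6 genes, all above 8 CPM in CAST/EiJ. Myo7b (chr18:31959234-32036961, minus strand), a myosin of intestinal microvilli, had 60.4, 71.2 and 73.8 CPM in CAST/EiJ, compared with 1.26, 1.62 and 2.37 CPM in C57BL/6J and 2.73, 2.98 and 3.45 CPM in NZO/HlLtJ. Sgsm1 (chr5:113243220-113310786, minus strand), a small G protein signalling modulator, had 54.1, 58.1 and 64.6 CPM in CAST/EiJ, compared with 1.92, 2.28 and 3.01 CPM in C57BL/6J and 1.68, 2.44 and 3.01 CPM in NZO/HlLtJ, while Sgsm2 averaged 30.3 CPM in CAST/EiJ, against 36.3 in C57BL/6J and 33.3 CPM in NZO/HlLtJ. Mlph, the melanophilin that links pigment granules to myosin, averaged 17.6 CPM in CAST/EiJ, compared with 1.15 in C57BL/6J and 1.52 in NZO/HlLtJ. Steap1, of a family of metal reductases, averaged 18.4 CPM in CAST/EiJ, compared with 1.19 in C57BL/6J and 1.22 in NZO/HlLtJ, Abca13, a lipid transporter, 14.2 CPM in CAST/EiJ, compared with 0.831 in C57BL/6J and 0.698 in NZO/HlLtJ, and Atp6v0a4, a proton pump subunit of kidney and inner ear, 8.79 CPM in CAST/EiJ, compared with 0.469 in C57BL/6J and 0.433 in NZO/HlLtJ.

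Immune genes were few. Rag1, the recombinase that assembles antibody and T cell receptor genes, averaged 18.7 CPM in CAST/EiJ, compared with 1.56 in C57BL/6J and 1.32 in NZO/HlLtJ. Its partner Rag2, 5.75 kilobases away, averaged 0.194 CPM in CAST/EiJ, against 0.867 in C57BL/6J and 0.872 CPM in NZO/HlLtJ, and the same-strand gene B230118H07Rik, which overlaps Rag1, had 102 CPM in CAST/EiJ, against 86.1 in C57BL/6J and 82.6 CPM in NZO/HlLtJ. The sum of 3 lymphocyte markers in the table was 1.33 to 2.08 CPM in CAST/EiJ, compared with 2.43 to 4.3 CPM in C57BL/6J and 1.76 to 3.49 CPM in NZO/HlLtJ; its part in the level of Rag1 was not tested. Skint10 (chr4:112711147-112774866), of a family first known from skin T cells, had 7.28, 9.59 and 10.2 CPM in CAST/EiJ, compared with 0, 0.0269 and 0.115 CPM in C57BL/6J and 0, 0.104 and 0.261 CPM in NZO/HlLtJ. Fcamr, an Fc receptor for IgA and IgM, averaged 2.02 CPM in CAST/EiJ, compared with 0.108 in C57BL/6J and 0.142 in NZO/HlLtJ.

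Muscle and inner ear genes were Fsd2, a sarcoplasmic reticulum protein, with 13.4 CPM in CAST/EiJ, compared with 0.647 in C57BL/6J and 0.529 in NZO/HlLtJ, Tnnc1, the troponin C of heart and slow muscle, with 2.78 CPM in CAST/EiJ, compared with 0.0823 in C57BL/6J and 0.102 in NZO/HlLtJ, and Grxcr1, a protein of hair cell bundles, with 2.83 CPM in CAST/EiJ, compared with 0.0109 in C57BL/6J and 0.0536 in NZO/HlLtJ. Tnnc1 overlaps the abundant gene Nisch on the opposite strand, which had 71.7 CPM in CAST/EiJ, against 65.4 in C57BL/6J and 90.1 CPM in NZO/HlLtJ. The sum of 3 skeletal muscle markers was 0.812 to 1.43 CPM in CAST/EiJ, compared with 0.541 to 1 CPM in C57BL/6J and 0.51 to 0.82 CPM in NZO/HlLtJ; its part in the levels of these genes was not tested. Among enzymes, Car9, a carbonic anhydrase induced by low oxygen, averaged 4.27 CPM in CAST/EiJ, compared with 0.0611 in C57BL/6J and 0.113 in NZO/HlLtJ, Sult2b1, a cholesterol sulfotransferase, 3.37 CPM in CAST/EiJ, compared with 0.146 in C57BL/6J and 0.256 in NZO/HlLtJ, and Mogat1, an acyltransferase of fat synthesis, 2.12 CPM in CAST/EiJ, compared with 0.146 in C57BL/6J and 0.0827 in NZO/HlLtJ. The kinase gene Map3k19 averaged 2.09 CPM in CAST/EiJ, compared with 0.0889 in C57BL/6J and 0.249 in NZO/HlLtJ. The remaining 3 genes had no role assigned here: Fam47e with 2.42 CPM in CAST/EiJ, compared with 0.0135 in C57BL/6J and 0.0527 in NZO/HlLtJ, the antisense gene Tvp23bos with 4.23 CPM in CAST/EiJ, compared with 0.303 in C57BL/6J and 0.518 in NZO/HlLtJ, and RP23-21B1.4 with 4.75 CPM in CAST/EiJ, compared with 0.0955 in C57BL/6J and 0.238 in NZO/HlLtJ.

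By position, the 65 genes lay on 19 chromosomes. Chromosomes 1 and 11 each held 7 and chromosome 18 held 6 (Nfatc1, Rpl17, Myo7b, Piezo2, Pcdha7 and Pcdhb9), which is 9.23% of the set beside 2.15% of all genes in the table. Pcdha7 and Pcdhb9 are clustered protocadherin genes that lie 213 kilobases apart. Only these and Fkbp10 with Krt15, 280 kilobases apart on chromosome 11, were within 500 kilobases of another gene of the set. Krt28 and Gsdma3 lay further along the same keratin and gasdermin stretch, with 1777 kilobases from Fkbp10 to Gsdma3.

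The question whether whole regions were high in CAST/EiJ was put to the neighbours. Genes of the set were not counted as neighbours, so the neighbours are genes that did not meet the rule. Sirpb1b, Gsta2 and 1700019G17Rik are also close copies of the genes beside them, and are not taken as independent of the rule. The nearest tested gene on each side gave 130 neighbours at a median gap of 38.8 kilobases. Of these 26 were higher in CAST/EiJ than in both other strains, or 20%, where 22.3% of all tested genes were, and 33 were lower, or 25.4%, where 24.9% were (edgeR's quasi-likelihood test, adjusted p under 0.05 in both comparisons). More than 2-fold higher in both were 10, or 7.69%, where 5.66% of all genes were. The median log2 difference of the neighbours was 0.0028 against C57BL/6J and -0.065 against NZO/HlLtJ, beside -0.0012 and -0.061 over all genes. These shares were near the background.

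The 10 neighbours over 2-fold were mostly faint. Gm17023, 1.07 kilobases from Proz, averaged 0.403 CPM in CAST/EiJ, against 0.00715 in C57BL/6J and 0.00637 CPM in NZO/HlLtJ. Gm37711, 1.36 kilobases from Oprd1, averaged 0.679 CPM in CAST/EiJ, against 0.0301 in C57BL/6J and 0.0515 CPM in NZO/HlLtJ. Gm43027 beside Grxcr1 averaged 0.711 CPM in CAST/EiJ, against 0.0296 in C57BL/6J and 0.00882 CPM in NZO/HlLtJ. Skint5 beside Skint10 averaged 0.432 CPM in CAST/EiJ, against 0.0136 in C57BL/6J and 0.0148 CPM in NZO/HlLtJ. Smim9, 1.59 kilobases from Fam220-ps, averaged 4.45 CPM in CAST/EiJ, against 1.3 in C57BL/6J and 0.963 CPM in NZO/HlLtJ. Gsdma2, 8.53 kilobases from Gsdma3 and of the same family, averaged 1.3 CPM in CAST/EiJ, against 0.138 in C57BL/6J and 0.0427 CPM in NZO/HlLtJ. Gbgt1, a glycosyltransferase gene 18.8 kilobases from Rpsa-ps9, averaged 3.12 CPM in CAST/EiJ, against 1.44 in C57BL/6J and 1.57 CPM in NZO/HlLtJ. By contrast, Ctdp1, 137 kilobases from Nfatc1, averaged 40.3 CPM in CAST/EiJ, against 45 in C57BL/6J and 44.7 CPM in NZO/HlLtJ. Atp9b, 21.1 kilobases away on the other side of Nfatc1, averaged 198 CPM in CAST/EiJ, against 161 in C57BL/6J and 159 CPM in NZO/HlLtJ. Atp9b was called higher in CAST/EiJ than in both, though by less than 2-fold. Elmo2 beside Zfp663 averaged 16.7 CPM in CAST/EiJ, against 15.1 in C57BL/6J and 16.6 CPM in NZO/HlLtJ.

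Diet was the comparison the rule had not used. In CAST/EiJ, 44% fat against 10% fat gave 0 of the 65 genes past an adjusted p of 0.05, where the share of all 22873 genes tested was 0% (edgeR's quasi-likelihood test). DESeq2 called 0 of the 65 and 3 of all genes. At an unadjusted p under 0.05 there was 1 of the 65, or 1.54%, beside 941 of all genes, or 4.11%. The log2 fold changes ran from -0.37 to 0.38, with 38 above 0 and 27 below, a median of 0.02 and a median SE of 0.19. All 65 were within 0.5 on the log2 scale. In counts simulated on these libraries, 86% of genes changed 1.5-fold by diet in CAST/EiJ and 100% of those changed 2-fold were called. The changed genes were drawn from all genes at 2 CPM or more in CAST/EiJ, so these shares need not hold for the 65. The simulation also changed 50, 100 and 50 genes at once, by 1.5-, 2- and 4-fold. With many genes changed, a gene passes the adjusted p more easily than it would alone. A lone 1.5-fold or 2-fold change in a gene at the median SE could thus be missed. Among the 65 the SE reached 0.394 for Apoo-ps, where a still larger diet change could be missed.

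Fkbp10 had the smallest p. It read 136, 127, 129 and 134 CPM in the CAST/EiJ 44% fat libraries, against 112, 121 and 116 CPM in the 10% fat libraries. These did not overlap, as was so for 2 of the 65 genes beside 5.45% of all tested genes; the log2 fold change was 0.19 (SE 0.07) with an adjusted p of 1 by edgeR. The other was RP23-21B1.4, with 5.01, 4.82, 4.98 and 5.13 CPM on 44% fat, against 4.67, 4.37 and 4.3 CPM on 10% fat. Pcdhb9 read 3.1, 2.03, 2.16 and 2.69 CPM on 44% fat, against 1.92, 2.24 and 1.68 CPM on 10% fat, and its groups overlapped. Sgsm1 read 63.7, 57.6, 64.6 and 61 CPM on 44% fat, against 54.1, 56.2 and 58.1 CPM on 10% fat, and these overlapped as well.

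**Figure D4:**
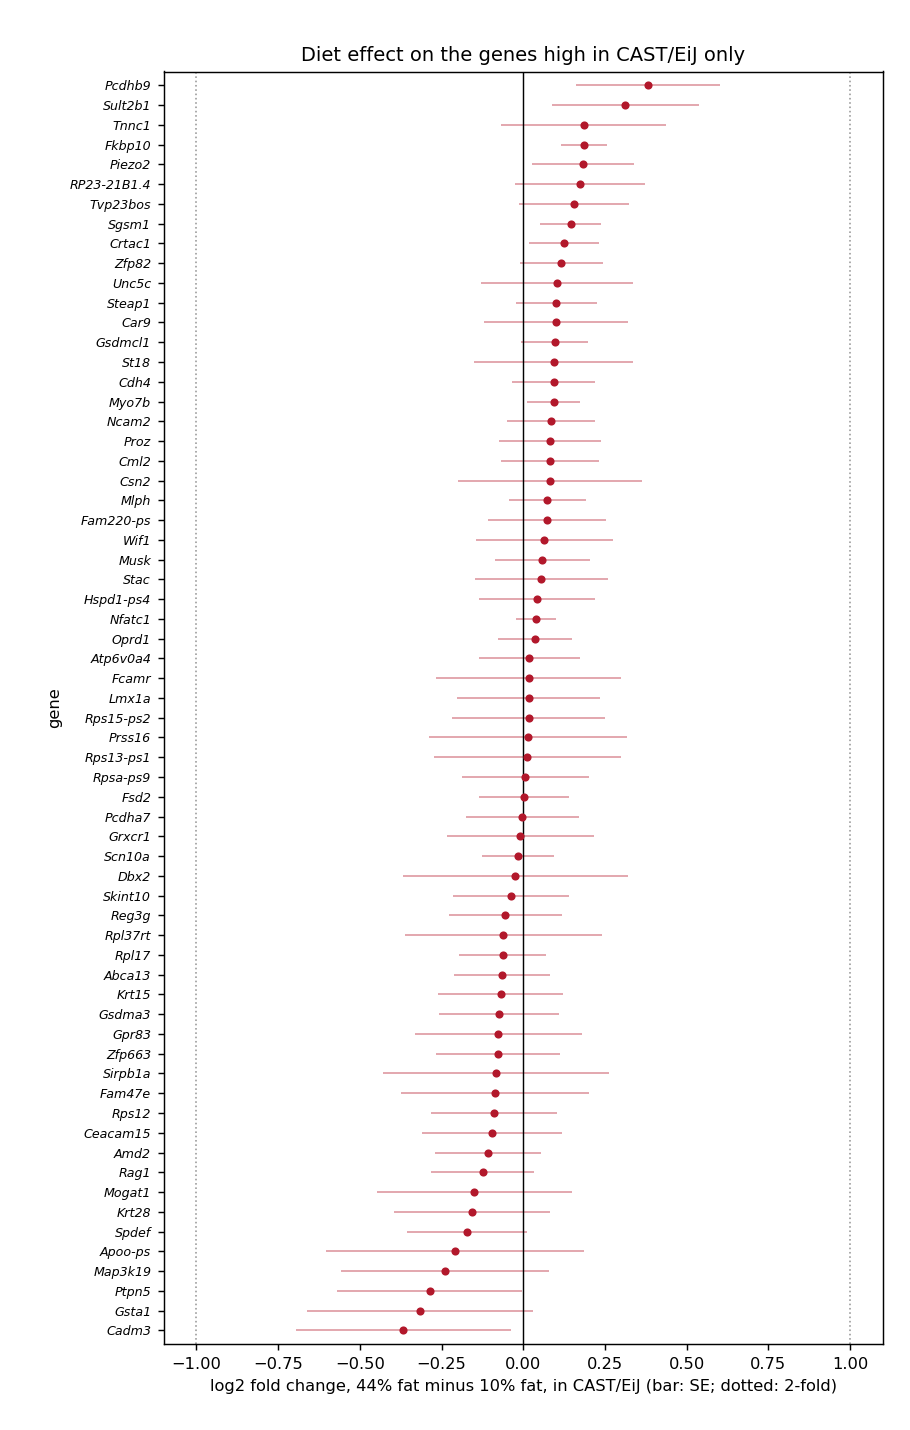
Log2 fold change of 44% fat over 10% fat in CAST/EiJ (4 and 3 libraries) for each of 64 genes of the set, with bars giving the SE of the edgeR fit and dotted lines at a 2-fold change. The points run from -0.37 for Cadm3 to 0.38 for Pcdhb9, all inside the dotted lines.

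Whether the diet acted otherwise in CAST/EiJ was asked with the difference between its diet effect and the mean diet effect of the other strains. By edgeR 0 of the 65 and 0% of all genes passed an adjusted p of 0.05; at an unadjusted p under 0.05 there were 5 of the 65 and 1312 of all genes, or 5.74%, and DESeq2 called 0 of the 65 and 4 of all genes. The 5 were Skint10, Fam220-ps, Oprd1, Tvp23bos and Rps12. The median SE was 0.38 on the log2 scale, larger than for diet in CAST/EiJ, and these genes have few counts in the other strains.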

How the data were processed

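Testis RNA was sequenced in 23 libraries as 100 bp pairs from polyA libraries, per the labels' protocols, with spike-in RNA that is not used here. The values deposited by the authors are estimated counts of each gene (22.6% were not whole at a tolerance of 0.001) and, in another table used only as an alternative, log2 values that they had variance-stabilised, from 7.67 to 19.3. Gene positions came from the authors' deposited annotation table, and 56 of the 65 gene starts equalled those of GENCODE M21. The submitters' processing notes name GRCm38 and DESeq2. No source used here names the aligner, the counter, its strand setting or its handling of strain variants and of reads that fit several genes. Depth limits precision through the counts given; replicates of a group differed by 3.47 to 18.9 times the variance expected from counting alone over the 33 pairs within a group, more than repeat reads of the same library would give.

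Levels are CPM over the column total. The 65 genes, the groups of genes and the tests were chosen with earlier results of these data known, and genes were grouped by role after their values were seen. One gene of the set is kept in the counts and is not reported here by name or in the plots. The lowest, median and highest level by strain, or the value of each library, were given for the 12 highest genes in CAST/EiJ, the 8 with the largest ratio, those within 500 kb of another, the 5 most variable and the 3 with the smallest diet p, with relatives that share a symbol stem. Close copies were found with BLAST 2.17.0 against GENCODE M21 transcripts. Counts were rounded, filtered with filterByExpr on the 6 groups of strain and diet (22873 genes left), scaled with TMM and fitted with 1 mean per group over all 23 libraries with edgeR 4.0.16 in R 4.3.3; calls needed a Benjamini-Hochberg adjusted p under 0.05 over all genes tested. DESeq2 1.42.0, other scalings, no filter, the run of sample IDs and libraries left out were alternatives. The fit was tested on simulated data, with 50, 100 and 50 genes changed 1.5-, 2- and 4-fold among 22591.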

Additional observations from a re-analysis of the deposited data

Results flagged for a closer look

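Each gene's levels were read within each strain for a library far from the rest (the gap of the highest or lowest library to its nearest neighbour, as a share of the range, above Dixon's 95% value). This marked 17 of 195 series, or 8.72%, where chance marks about 1 in 20. In CAST/EiJ the lowest library stood apart for Nfatc1 (105 CPM) and Myo7b (60.4 CPM), both in the 10% fat replicate 3, for Proz (4.88 CPM, 10% fat replicate 1) and for Tvp23bos (3.43 CPM, 10% fat replicate 2), and the highest for Abca13 (17.7 CPM, 10% fat replicate 2). Each of these 5 values, which fall in 3 libraries, was above that gene's values in the other strains, which the rule chose for.

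In C57BL/6J the highest library stood apart for Car9 (0.229 CPM), Gsta1 (0.704 CPM), Fam47e (0.0781 CPM) and Dbx2 (0.156 CPM). In NZO/HlLtJ the highest stood apart for Rps12 (4.53 CPM), Fam220-ps (0.297 CPM), Lmx1a (0.323 CPM), Zfp663 (0.0833 CPM), Cml2 (0.128 CPM), Rps15-ps2 (0.161 CPM) and Prss16 (0.416 CPM), and the lowest for Nfatc1 (2.14 CPM). Levels under 1 CPM rest on few counts.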

How the results depend on the processing

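The number of genes that meet the rule was 147 at a fold of 4, 37 at 16 and 40 at a CAST/EiJ mean of 5 CPM, and between 64 and 82 with TMM scaling, medians, 1 diet only, a mean of 1 CPM or any 1 library left out. For diet in CAST/EiJ, DESeq2 called 3 of all genes, and leaving out 1 library gave 0 to 3, with 3 without the CAST/EiJ 44% fat replicate 3; 0 of the 65 were called under every alternative run. For the diet difference between strains, DESeq2 called 4 of all genes and leaving out 1 library gave 0 to 1, with 1 without that same library. Higher neighbours numbered 55 of 260 with the nearest 2 genes on each side. No paired analysis was possible because the labels give no replicate numbers; with the run of sample IDs as a covariate, both diet comparisons called 0 of all genes and 26 of 130 neighbours were higher. Ratios of genes with few counts in the other strains are limited by depth. The size of the strain difference depended on the scale. In the deposited variance-stabilised values, CAST/EiJ minus the higher other strain ran from 0.598 to 3.57 log2 units over the 65. With 0.5 CPM added to each mean it ran from 1.79 to 5.68. The direction was reversed for 0 of the 65 in both.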
